A study of Mus musculus with 12 samples.

Results

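The Arraystar mouse small RNA array carries 2716 probes whose identifiers hold the letters PST, among 14242 non-control probes in all. They were chosen by these letters alone. A PST probe was tested where 3 or more of the 12 arrays carried the mark of the scanner software for a signal well above background, which held for 334 of the 2716. The sources used here do not say what PST stands for, and the files pair the probes with no RNA name, sequence or position, so each probe is described by its identifier and its signal. The array held 1 spot for each PST probe. The same array carries 9709 miRNA probes, 1767 whose identifiers hold TRF, and 50 for genes.

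Small RNA was measured in primary smooth muscle cells from mouse aorta. All cells were transfected with an siRNA for 48 h without serum, either the non-target siNT or siOCT4 against Oct4, and then received 10 µg/mL POVPC or its vehicle DMSO for 24 h. This gave the groups siNT-DMSO and siNT-POVPC with the control siRNA and siOCT4-DMSO and siOCT4-POVPC with the knockdown, each of 3 arrays. The labels do not say that the 3 came from separate cultures, so the p-values below measure only the spread between these samples, which may be technical. The siNT and siOCT4 cells differ both in OCT4 and in the RNA that was transfected, and these cannot be told apart. None of the 50 gene probes matched a transcript of Pou5f1, the gene for OCT4, so the knockdown itself was not checked on this array. The study reports a check of it by qRT-PCR. No probe could be matched to the smooth muscle, endothelial or blood miRNAs listed as cell type markers, and the labelled cell type was not checked either.

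Small RNAs are short transcripts that are not translated, and the best known of them, the miRNAs, guide Argonaute proteins to mRNAs and lower the output of these. OCT4 is best known from the transcription factor network of pluripotent cells and is also expressed in smooth muscle cells of diseased arteries. POVPC is an oxidized phospholipid of oxidized low-density lipoprotein and of atherosclerotic lesions, to which smooth muscle cells respond by changing their phenotype. In RNA from a culture, fewer cells with a given RNA and less of it per cell cannot be told apart.

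One array stood apart from the others. On siOCT4-DMSO replicate 3 the median processed signal of the small RNA probes was 24.1 before normalization, while it lay between 5.58 and 8.73 on the other arrays. That array was scanned with the 3 siOCT4-POVPC arrays (scan 2), and the other 8 arrays, all 6 siNT arrays among them, were scanned together (scan 1). Levels below are log2 of the quantile-normalized signal, on which a probe with no measurable signal lies at 0.02. No array had a saturated spot.

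Most PST probes were not well above background in these cells. Of the 2716 probes, 2236 were not well above background on any array, 146 were so on 1 or 2 arrays, 169 on 3 to 11 and 165 on all 12. Per array, between 215 and 438 PST probes were well above background, or 7.92% to 16.1% of the class. By the looser mark of a signal that is positive and significantly above the local background, the PST share was 26.5% to 54.1%, highest on siOCT4-DMSO replicate 3. The TRF probes reached 80.2% to 98.8% and the miRNA probes 62.3% to 98.6% well above background. The PST share was lower on 12 of 12 arrays. Its mean difference was -78.3 percentage points from TRF and -67.4 from miRNA (exact two-sided sign-flip permutation test, p = 0.000488 for each, the smallest that 12 arrays allow).

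The number of PST probes well above background was 221, 303 and 224 in siNT-DMSO and 277, 270 and 262 in siNT-POVPC. It was 263, 302 and 438 in siOCT4-DMSO and 233, 215 and 224 in siOCT4-POVPC. The highest value was that of the bright siOCT4-DMSO replicate 3, and 97 of the 115 probes detected on a single array were detected there. The 6 siOCT4 arrays averaged 279 ± 84.0 (SD) and the 6 siNT arrays 260 ± 31.8, a difference of 19.7 probes that did not pass an exact two-sided permutation test (p = 0.738). Without siOCT4-DMSO replicate 3 the difference was -12.1 probes (exact permutation p = 0.539). On the arrays of scan 1 it was 23 probes (exact permutation p = 0.536, 2 siOCT4 arrays against 6).

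With 3 arrays against 3, an exact permutation test cannot go below 0.1. The siOCT4-POVPC arrays had fewer PST probes above background than the siNT-POVPC arrays, with no overlap and a mean difference of -45.7 (exact permutation p = 0.1). From the siOCT4-DMSO arrays they differed by -110, again with no overlap (exact permutation p = 0.1). Detection over all small RNA probes was lower there too and likewise without overlap, with 7704 to 8697 probes on the siOCT4-POVPC arrays, 9390 to 10144 on the siNT-POVPC arrays and 9559 to 11759 on the siOCT4-DMSO arrays. Against siNT-POVPC the mean differed by -16.9% for PST and -15.3% for all small RNA probes, and against siOCT4-DMSO by -33.0% and -20.3%. The median signal over all small RNA probes was also lower on the siOCT4-POVPC arrays (5.58 to 6.49) than on the siNT-POVPC arrays (7.53 to 8.73), and its part in these counts was not tested.

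At the edge of the rule, 30 PST probes were well above background on exactly 3 arrays and 31 on exactly 2. The mean level over 12 arrays had a median of 1.77 in the former and of 1.76 in the latter. siOCT4-DMSO replicate 3 was among the detecting arrays for 24 of the 30 and for 26 of the 31, so that without this array 24 of the 30 would have missed the rule.

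The levels of the tested PST probes covered a wide range. The mean over 12 arrays lay between 1.08 and 14.9, with a median of 3.45, and it was above 10 for 7 of the 334. The highest TRF probe lay at 17.0. Among the 165 probes detected on every array the median was 4.68. PST probes carried between 0.645% and 0.967% of the summed small RNA signal of an array, TRF probes between 91.6% and 95.2%. These shares also depend on how many probes a class has and how brightly each one hybridizes. The PST share was 0.705% ± 0.0270 (SD, n = 3) in siNT-DMSO, 0.750% ± 0.0251 in siNT-POVPC, 0.803% ± 0.142 in siOCT4-DMSO and 0.654% ± 0.00881 in siOCT4-POVPC. The highest share was that of siOCT4-DMSO replicate 3.

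The 5 PST probes with the highest mean level differed little between groups. ASMM10SMR20PST100033973TV1 lay at 14.73, 14.75 and 14.99 in siNT-DMSO, 14.87, 14.85 and 14.87 in siNT-POVPC, 14.89, 14.89 and 15.12 in siOCT4-DMSO and 14.87 on all 3 siOCT4-POVPC arrays. Quantile normalization gives probes of equal rank equal values, so the agreement of its siOCT4-POVPC arrays is one of rank. ASMM10SMR20PST100028054TV1 had group means between 14.46 and 14.68, ASMM10SMR20PST100018510TV1 between 13.64 and 13.98, ASMM10SMR20PST100042486TV1 between 10.87 and 11.00 and ASMM10SMR20PST100016663TV1 between 10.75 and 11.12. None of the 5 was called in any comparison, and knockdown over all 12 arrays moved them by between -0.09 and 0.08. On 4 of the 5, ASMM10SMR20PST100042486TV1 excepted, siOCT4-DMSO replicate 3 gave the highest value of all 12 arrays.

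Replicates of the 165 PST probes detected on every array agreed to within a median SD of 0.27 in siNT-DMSO, 0.23 in siNT-POVPC, 0.38 in siOCT4-DMSO and 0.12 in siOCT4-POVPC. The miRNA probes detected on every array had 0.17, 0.14, 0.19 and 0.12 in the same order. The spread of the PST probes was thus largest in the group that holds the bright array.

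The clearest feature of the class was a small set of probes seen with only 1 of the siRNAs. On all 6 siOCT4 arrays and on 0 of the 6 siNT arrays, 16 PST probes were well above background. On all 6 siNT arrays and on 0 siOCT4 arrays there were 7. Among all 10626 small RNA probes tested, 19 (0.179%) showed the former pattern, the other 3 being miRNA probes. Only the 7 PST probes (0.0659%) showed the latter, and no TRF probe showed either. These 23 probes passed the detection rule only through the arrays of 1 siRNA, so a difference between the siRNAs was built into their choice. The counts, levels and folds of these probes are therefore a description, and no p is given for them.

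Of the siOCT4 probes, ASMM10SMR20PST100005441TV1 had the highest level. It lay at 9.95, 9.89 and 9.73 in siOCT4-DMSO and at 10.09, 10.01 and 10.04 in siOCT4-POVPC. In siNT-DMSO it was at 0.02 on all 3 arrays, and in siNT-POVPC at 0.02, 0.02 and 0.68. The 6 siOCT4 arrays thus lay close together and far above every siNT array. It was at least 171-fold higher in siOCT4 than in siNT cells. This bound sets the mean of the brighter arrays against the lowest signal that still counted as well above background on each dim array, or the signal of the probe itself where that was higher. The size depended on how dim signals were treated. The difference of the siRNA means was 9.82 as normalized here, 7.52 in the deposited series table, 6.95 with signals floored at 8 and 3.40 after normexp background correction, which adds 50 to every signal, so that the bounds hold for the normalization used here alone.

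ASMM10SMR20PST100002319TV1 lay at 8.16, 7.60 and 7.15 in siOCT4-DMSO and at 7.73, 7.80 and 7.98 in siOCT4-POVPC. On the siNT arrays it lay between 0.02 and 0.90. The groups did not overlap, and it was at least 36.8-fold higher with siOCT4. ASMM10SMR20PST100024965TV1 lay at 7.00, 6.88 and 5.62 in siOCT4-DMSO and at 6.95, 6.78 and 6.81 in siOCT4-POVPC, against 0.02 to 0.88 on the siNT arrays. It was at least 17.7-fold higher. In this probe siOCT4-DMSO replicate 3 lay over 1 log2 unit below the other siOCT4 arrays.

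The other siOCT4 probes with a high level had the same form. ASMM10SMR20PST100041265TV1 lay at 6.64, 6.46 and 5.22 in siOCT4-DMSO, at 6.58, 6.36 and 6.40 in siOCT4-POVPC and at 0.57 or less on the siNT arrays (at least 13.4-fold). ASMM10SMR20PST100008369TV1 lay at 6.01, 5.87 and 5.68 in siOCT4-DMSO and at 6.53, 6.43 and 6.38 in siOCT4-POVPC (at least 12.3-fold). ASMM10SMR20PST100010321TV1 lay at 5.82, 6.59 and 4.76 and at 6.36, 6.07 and 6.15 (at least 10.8-fold). The last 2 gave no measurable signal on any of the 6 siNT arrays. The remaining 10 of the 16 probes had a mean level between 3.32 and 5.73 on the siOCT4 arrays and were at least 1.73-fold to 9.20-fold higher. After normexp the differences of the 16, siOCT4 minus siNT, lay between 0.11 and 3.40, in place of 2.74 and 9.82. Their direction was built into the choice of the probes.

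In all 16 probes the lowest of the 6 siOCT4 values was that of siOCT4-DMSO replicate 3. Before normalization, which brings this bright array down to the level of the others, it was the lowest in 0 of the 16. For ASMM10SMR20PST100005441TV1 the processed signal before normalization ranged from 795 to 1721 on the siOCT4 arrays and from 1.02 to 1.65 on the siNT arrays.

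Of the siNT probes, ASMM10SMR20PST100001324TV1 had the highest level. It lay at 6.41, 5.81 and 6.68 in siNT-DMSO and at 7.00, 6.41 and 6.78 in siNT-POVPC. In siOCT4-DMSO it lay at 2.01, 1.48 and 0.92, and in siOCT4-POVPC at 0.61, 0.02 and 0.02. The siRNAs did not overlap, and it was at least 17.4-fold lower with siOCT4. ASMM10SMR20PST100015226TV1 lay at 5.62, 5.33 and 5.47 in siNT-DMSO, at 6.01, 6.20 and 5.90 in siNT-POVPC and between 0.10 and 1.82 on the siOCT4 arrays. It was at least 10.3-fold lower.

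ASMM10SMR20PST100040006TV1 lay at 5.10, 4.37 and 5.28 in siNT-DMSO and at 5.76, 5.63 and 5.55 in siNT-POVPC, against 1.12 on siOCT4-DMSO replicate 1 and 0.02 on the other 5 siOCT4 arrays (at least 7.41-fold lower). ASMM10SMR20PST100005580TV1 was at least 6.33-fold, ASMM10SMR20PST100013389TV1 at least 5.99-fold and ASMM10SMR20PST100015748TV1 at least 4.18-fold lower. The last of the 7, ASMM10SMR20PST100026300TV1, was at least 3.45-fold lower. After normexp the differences of the 7, siOCT4 minus siNT, lay between -0.89 and -0.24, in place of -5.67 and -3.91.

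What signal these probes kept with siOCT4 was highest on siOCT4-DMSO replicate 1 in 6 of the 7. A further 3 probes were well above background on all 6 siNT arrays and, of the siOCT4 arrays, on that one alone. ASMM10SMR20PST100036807TV1 lay between 5.01 and 6.24 on the siNT arrays, at 2.51 on siOCT4-DMSO replicate 1 and at 0.02 on the other 5. ASMM10SMR20PST100003694TV1 lay between 5.10 and 6.51, at 3.70 on siOCT4-DMSO replicate 1 and no higher than 1.34 on the remaining siOCT4 arrays. ASMM10SMR20PST100023741TV1 lay between 4.55 and 6.74, at 3.82 on siOCT4-DMSO replicate 1, at 1.62 on replicate 2 and at 0.02 on the other 4. Without siOCT4-DMSO replicate 1 the siNT set grew from 7 to 10 probes.

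Both patterns could also be counted within a single scan, on arrays that had helped to define the sets. On siOCT4-DMSO replicates 1 and 2, which were scanned together with the 6 siNT arrays, 21 PST probes were well above background and absent from siNT, and 8 were absent there and present on every siNT array. This asks for 2 siOCT4 arrays in place of 6 and so is a less strict condition. The share of all small RNA probes with these forms was not counted, so the 2 numbers are a description. Over all 12 arrays and under the looser mark, 8 PST probes were seen only with siOCT4 and 1 only with siNT. Of the 16 probes 11, and all 7 of the siNT set, had at least 1 array of the other siRNA with that mark. The 8 and the 1 are therefore not all from the 16 and the 7, and the share of all small RNA probes was not counted for them. The probes lay apart on the array, between rows 17 and 186 and columns 15 and 78, and no pair of them shared neighbouring spots. So few spots on a large array would rarely be neighbours, and the part of position in their signals was not tested.

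The identifiers hold running numbers, but few of the named probes had another PST probe within 2 numbers. Of the 41 PST probes called for knockdown over all 12 arrays (below), 6 had one, so most probes of the siRNA sets are not covered. The neighbours of named probes were not well above background on any array, with 2 exceptions. ASMM10SMR20PST100040007TV1, next to the siNT probe ASMM10SMR20PST100040006TV1, was detected on 8 arrays and lay on average at 2.32 with siNT and 2.69 with siOCT4 (adjusted p = 0.712). ASMM10SMR20PST100016661TV1, near ASMM10SMR20PST100016663TV1, which has a high mean level and is in neither siRNA set, was detected on 11 arrays and lay at 3.04 and 2.98. What the running numbers stand for is not given in the sources used here.

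The comparison of siOCT4-DMSO vs. siNT-DMSO set the knockdown siRNA against the control siRNA in cells without POVPC. At an adjusted p under 0.05 and at least 1.5-fold, 30 of the 334 PST probes were called, 19 higher and 11 lower with siOCT4. Over all small RNA probes tested 152 of 10626 were called (1.43%), 0.499% higher and 0.932% lower. The PST share was 8.98%, against 0.359% of the TRF and 1.35% of the miRNA probes. However, 27 of the 30 had passed the detection rule only through arrays of 1 siRNA, and all 23 probes of the preceding sets were among them. None of the 165 PST probes detected on every array was called. The count was 5 after normexp background correction, 9 with signals floored at 8 and 18 in the deposited series table. The median PST change was -0.18, beside 0.03 over all probes tested.

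Under POVPC, siOCT4-POVPC vs. siNT-POVPC, 39 PST probes were called, 20 higher and 19 lower. All siOCT4-POVPC arrays were in scan 2 and all siNT-POVPC arrays in scan 1, so siRNA and scan cannot be told apart in this comparison. The background was 2.53% of all probes tested, 1.04% higher and 1.5% lower. All 30 PST probes called under DMSO were called here too and in the same direction. This is 100% of the former list and 76.9% of the latter, but 27 of the 30 had passed detection through 1 siRNA only, by a rule that used the arrays of both comparisons, so the shared calls are a description. All 39 had groups that did not overlap, as had 19.3% of all probes tested and 100% of all probes called. The same 27 were among the 39. The count was 12 after normexp background correction. The median PST change was -0.08, beside 0.01 over all probes.

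The remaining 9 probes were called under POVPC alone, but in none of the 334 did the knockdown effect differ between DMSO and POVPC past the threshold (below). The 5 with the largest fitted difference among those lower under POVPC, which had passed detection through all 6 siNT arrays and at most 1 siOCT4 array, were ASMM10SMR20PST100001324TV1, at least 15.1-fold, ASMM10SMR20PST100036807TV1, at least 10.2-fold, ASMM10SMR20PST100023741TV1, at least 9.72-fold, ASMM10SMR20PST100003694TV1, at least 11.3-fold, and ASMM10SMR20PST100040006TV1, at least 7.09-fold. Given as a description, these bounds carry no p. Under DMSO, ASMM10SMR20PST100003694TV1 and ASMM10SMR20PST100023741TV1 did not pass, and siOCT4-DMSO replicate 1 lay above the other siOCT4 arrays in both.

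Of the 39 probes, 38 had the same sign under DMSO. The exception was ASMM10SMR20PST100044867TV1, detected on all 12 arrays. It lay at 4.75, 4.20 and 5.02 in siNT-DMSO, at 5.03, 4.88 and 5.19 in siNT-POVPC, at 5.97, 5.69 and 5.33 in siOCT4-DMSO and at 4.33, 4.35 and 4.27 in siOCT4-POVPC. With siOCT4 it was lower by 0.72 under POVPC (SE 0.11, adjusted p = 0.0217) and higher by 1.01 under DMSO (SE 0.26, adjusted p = 0.223).

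Over all 12 arrays, 41 PST probes were called for siOCT4 vs. siNT, 20 higher and 21 lower, beside 2.8% of all small RNA probes (1.14% higher and 1.66% lower). All 16 and all 7 probes of the siRNA sets were among the 41. Of the other 18, ASMM10SMR20PST100002715TV1 had a large difference with signal in both. It lay between 6.74 and 7.72 on the siNT arrays. With siOCT4 it lay at 2.92, 2.51 and 2.34 in siOCT4-DMSO and at 2.53, 2.58 and 2.68 in siOCT4-POVPC, group means of 2.59 and 2.60. Of these arrays only those of siOCT4-DMSO were marked as well above background. The lowest signal with that mark was 2.40, 2.48 and 1.01 in siOCT4-DMSO and 2.95, 2.71 and 2.78 in siOCT4-POVPC. The probe thus lay close to this limit on most siOCT4 arrays. Under DMSO, where all 6 arrays were well above background, it fell by 4.77 with siOCT4 (SE 0.29, adjusted p = 0.000456). Under POVPC it was at least 22.8-fold lower (adjusted p = 3.11e-06).

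Among the 165 PST probes detected on all 12 arrays, 6 were called (3.64%). This was near the 2.52% of all 6592 small RNA probes detected on every array, so that the higher share of calls in the class lay with probes not detected on every array. Under POVPC it was 4 of 165 (2.42%, against 2.18%). Of the 6, only ASMM10SMR20PST100030477TV1 was higher with siOCT4. It lay at 3.61, 3.16 and 3.75 in siNT-DMSO, 3.58, 3.67 and 4.05 in siNT-POVPC, 6.21, 5.89 and 4.74 in siOCT4-DMSO and 5.96, 5.87 and 6.01 in siOCT4-POVPC, a rise of 2.14 (SE 0.22, adjusted p = 6.65e-05). The groups did not overlap, and siOCT4-DMSO replicate 3 was again the lowest siOCT4 array. The other 5 were lower by between 0.59 and 0.67, and in 4 of these the siNT and siOCT4 arrays overlapped. These 6 were picked out after their values were seen.

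For POVPC in siNT cells 2 PST probes were called, both lower in siNT-POVPC than in siNT-DMSO, beside 12 of all 10626 small RNA probes (0.113%), which were all lower as well. Neither of the 2 was well above background on any POVPC array, so both had passed detection only through DMSO arrays, where they are high, and their values are a description. ASMM10SMR20PST100046185TV1 lay at 4.95, 5.55 and 5.20 in siNT-DMSO and at 0.02, 0.02 and 1.17 in siNT-POVPC, at least 7.06-fold lower. In siOCT4-DMSO it lay at 3.68, 5.77 and 1.25 and in siOCT4-POVPC at 0.91, 0.02 and 0.02, so that it was low under POVPC with both siRNAs. ASMM10SMR20PST100005775TV1 lay at 2.76, 4.18 and 3.23 in siNT-DMSO, where 2 of 3 arrays were well above background, and at 0.02 on all siNT-POVPC arrays, at least 1.97-fold lower. In siOCT4 cells it was at 3.51 on siOCT4-DMSO replicate 2 and at 0.02 on the other 5 arrays.

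These calls depended on single arrays. None was left when replicate 3 of siNT-DMSO was taken out, nor without replicate 1 or replicate 2 of siNT-POVPC, and 1 was left without replicate 3 of siNT-POVPC. In the series table deposited by the authors 1 was called, and in a fit of all 12 arrays 0. At an unadjusted p of 0.05 limma passed 40 of the 334 PST probes, beside 934 of all 10626 small RNA probes. Of the 334, 227 lay above 0. The median PST change was 0.13, beside -0.00 over all probes.

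In siOCT4 cells limma called 0 PST probes for POVPC, as it called 0% of all small RNA probes. An unadjusted p of 0.05 was passed by 61 of the 334 PST probes, beside 1355 of all 10626 small RNA probes. The methods' t-test after the same adjustment also called 0. The PST probes with the lowest p in each direction were ASMM10SMR20PST100015099TV1 and ASMM10SMR20PST100044867TV1. The former lay at 4.15, 4.30 and 4.01 in siOCT4-DMSO and at 4.94, 4.82 and 5.10 in siOCT4-POVPC, a difference of 0.80 (SE 0.14, adjusted p = 0.155). The latter differed by -1.35 (SE 0.18, adjusted p = 0.152). In both the groups did not overlap, but the probes were picked for their low p, so this adds nothing to it. How many of all probes had groups without overlap was not counted for this comparison.

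Scan and treatment are partly confounded here, since only siOCT4-DMSO replicate 3 was scanned with the siOCT4-POVPC arrays. With the scan as a block, 107 PST probes were called, 101 higher under POVPC, and this value rests on that 1 bright array. Within scan 2 there is 1 siOCT4-DMSO array and no test. Without that array 0 PST probes were called.

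The difference of the POVPC effects between siOCT4 and siNT cells was fitted over all 12 arrays. It was called for 0 PST probes and 0% of all probes. An unadjusted p of 0.05 was passed by 33 of the 334 PST probes, beside 565 of all 10626 small RNA probes. The methods' t-test after adjustment called 0 as well. The lowest p was that of ASMM10SMR20PST100044867TV1, at -1.72 (SE 0.30, adjusted p = 0.784). In the other direction it was that of ASMM10SMR20PST100008369TV1, whose siOCT4-POVPC mean lay 0.59 above its siOCT4-DMSO mean while it was at 0.02 on every siNT array (SE 0.15, adjusted p = 0.784). With the scan as a block 35 were called, again through siOCT4-DMSO replicate 3.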

How the data were processed

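The deposited scanner files give each spot's intensity, as the authors obtained it with Agilent Feature Extraction 11.0.1.1 (version per the labels), with local background subtracted and no scaling between arrays. Per the study's methods, RNA was dephosphorylated and Cy3 was ligated to its 3′ ends. The deposited series table of log2 values, which the authors quantile-normalized, was used as an alternative. Outlier-marked spots (14 to 23 per array, 4 PST values) were left out. Signals were quantile-normalized over 12 arrays, floored at 1 and taken to log2. limma 3.58.1 in R 4.3.3 was fitted on the 10626 miRNA, PST and TRF probes well above background on at least 3 arrays, with Benjamini-Hochberg adjustment over all of them. Detection was compared with exact permutation tests. limma was also run on simulated data with a normal spread. No simulated probe was set to be absent with 1 siRNA, so this does not bear on the calls of such probes. The methods' t-test is an unpaired test with equal variances. Named probes were up to 5 calls each way per comparison (where none, the lowest p each way), up to 6 probes each way seen with 1 siRNA, and the 5 highest means. The description field of 9 samples names another group than their source name and title, which were followed. The number of arrays limits the precision. Members, lists and tests were chosen with earlier results of these data known.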

Additional observations from a re-analysis of the deposited data

Results flagged for a closer look

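Within the 6 arrays of 1 siRNA, the gap of the outermost array to its nearest neighbour, divided by the range, was compared with Dixon's critical value for 28 sets of values, and 8 passed it. Chance passes about 1 in 20 sets where each holds normal values of 1 population. Here the sets share the same arrays, pool both treatments and hold probes picked by their values. The 8 can therefore not be set against that rate. In 7 of the 8 the outermost array was siOCT4-DMSO replicate 3. It was the highest in the PST share of the summed signal (ratio 0.735), and in ASMM10SMR20PST100033973TV1 (0.924), ASMM10SMR20PST100028054TV1 (0.871), ASMM10SMR20PST100018510TV1 (0.688) and ASMM10SMR20PST100016663TV1 (0.637). It was the lowest in ASMM10SMR20PST100024965TV1 (0.836) and ASMM10SMR20PST100041265TV1 (0.798). That array had a median small RNA signal of 24.1, against at most 8.73 on the others, and the part of this in the flags was not tested. In ASMM10SMR20PST100015748TV1 the lowest siNT value, 3.25 on siNT-DMSO replicate 2, stood apart from the others (0.644).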

How the results depend on the processing

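Knockdown called 30 PST probes under DMSO, 39 under POVPC and 41 over all 12 arrays. After normexp (offset 50, on the median signal, since the mean is no column of the files) the counts were 5, 12 and 12. With only probes detected on all 12 arrays, which leaves out every probe absent from 1 siRNA, they were 0, 7 and 6. Under DMSO the count was also 9 with a floor of 8, 17 without a filter, 18 in the series table and, by the methods' t-test, 46 unadjusted and 6 adjusted. For POVPC in siNT cells (2 calls) the counts were 4 with 75th percentile scaling, 1 each with a floor of 8, without a filter and in the series table, 0 each with normexp, the stricter filter, the adjusted t-test and all 12 arrays in 1 fit, and 19 by the unadjusted t-test. For POVPC in siOCT4 cells (0 calls) they were 31 by the unadjusted t-test, 107 with the scan block and 3 with all 12 arrays in 1 fit. For the difference of the POVPC effects (0 calls) they were 1 without a filter, 20 by the unadjusted t-test and 35 with the scan block. The cause of these shifts was not tested, other than the filter that removes probes by its construction. Leaving out each array gave 22 to 35, 33 to 37 and 37 to 45 calls for knockdown, 0 to 2 for POVPC in siNT cells, and 0 for POVPC in siOCT4 cells and for the difference. A scan block could not be fitted for knockdown under POVPC, and POVPC in siNT cells lies within scan 1. On scan 1 arrays alone, chosen after seeing the data, knockdown called 37. The siOCT4 minus siNT difference in detected PST probes ranged from -12.1 to 32.5 when leaving out each array, and was -12.1 without siOCT4-DMSO replicate 3. Seen only with siOCT4 were 16 probes and only with siNT 7, and 16 to 17 and 7 to 10 on leaving out each array. Leaving out an array can only loosen this rule, so these counts could not fall and do not measure stability. With the looser detection mark, also added after seeing the data, 8 and 1 PST probes had these forms. They are not all from the 16 and 7, since 11 of the 16 and all 7 had that mark with the other siRNA too. The share of all small RNA probes was not counted for this mark. In the lists of named probes no alternative turned a direction, and 38 of 673 values lost and 9 gained a call. These probes were picked by the size or p of their change in these data, so a turned direction was unlikely from the start. The 673 values repeat the same probes over settings that share arrays and are not separate checks. The size depended on how dim signals were treated, since the fold moved by over 1.5 times in 35 of 36 values after normexp and in 31 of 36 each with the floor of 8 and in the series table.

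With a replicate block the counts were 29, 34 and 41 for knockdown, 1 and 0 for POVPC in siNT and siOCT4 cells, and 0 for the difference. Same-numbered arrays shared deviations with r from -0.29 to 0.50, so that the numbers were not taken as pairs, and an array correlated best with its own number in another group in 15 of 36 cases. Dim probes are limited by background, since the tested PST probes had a median level of 3.45 and the lowest signal well above background lay between 1.01 and 2.95 on the arrays.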
